A study of Mus musculus with 20 samples.

Results

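The 1171 regions described here are sites that GATA6 came to occupy late after its induction in mouse embryonic stem (ES) cells, alone and in chromatin that carried none of the histone marks considered. They were chosen by 4 classes in the authors' table of 42403 GATA6 binding regions, namely the Late cluster of GATA6 binding, no SOX17 peak, no peak of the pluripotency transcription factors (PTF: OCT4, SOX2 and ESRRB), and the class of ES cell chromatin without marks, which the authors call naive. The Late cluster held 14243 regions, of which 3128 were unmarked and 1211 of these lacked SOX17. Those classes rest on GATA6, SOX17 and PTF binding and on histone marks, so that these measured values chose the members and are not described further, and chromatin accessibility, DNA motifs, sequence and position are what follows. The accessibility of the ES cells was among the published tracks listed with the marks, so that a low level before induction may in part be what the unmarked class means. The paper identified its GATA6 regions over the time points and in XEN cells, an endoderm line. A member may thus have entered through GATA6 binding in XEN, so that high accessibility in XEN may in part follow from the choice.

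GATA6 is a zinc finger transcription factor that recognises the GATA core and drives the primitive endoderm fate, the extraembryonic lineage that lies beside the epiblast in the blastocyst. Together with SOX17 it sets up the endoderm programme, whereas OCT4, SOX2 and ESRRB maintain pluripotency. A pioneer factor is one that can engage its motif in closed chromatin, and Tn5 transposase, which inserts adapters into exposed DNA, reads out whether such a site has opened (ATAC-seq).

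Accessibility was measured in KH2 ES cells of C57BL/6 x 129/Sv background, which carried a doxycycline-inducible gata6 cassette in all their groups. They were collected untreated (d0, 3 samples) and after doxycycline (1 ug/mL) at 5 times, which the sample titles give as 8 h, 16 h, day 1, day 2 (each with 3 samples) and day 4 (2 samples). The treatment labels give 16, 24, 48, 72 and 96 h in that order, so that all times but day 4 are uncertain, and titles are used here. The last group was XEN cells, an extraembryonic endoderm line of a CD1 embryo (line X10, 3 samples), which were wild type, not induced and grown without LIF, so that strain, genotype and culture differ from KH2 together with cell identity. Over the regions whose nearest protein-coding gene was 1 of 7 ES cell genes, summed accessibility was 26.3 RPM (short-fragment reads scaled to library size) at d0, 41.6 at day 2, 22.9 at day 4 and 15.0 in XEN, and over those of 8 endoderm genes it went from 18.2 to 75.5, 62.4 and 44.3 RPM. In a bulk culture, fewer cells with an open site and less opening in each cell cannot be told apart.

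Each group was deposited as an average over its libraries. Because reads are whole, the reads of the single libraries could be recovered from the decimals for 34403 regions and 1149 members, in 3 libraries of each induced group before day 4, in 2 of day 4 and in 2 of XEN, where 3 samples were labelled, but not at d0. Tests therefore used 8 h as the baseline, and d0 enters only as an average without error. The 22 members not recovered were higher, with a median of 0.170 RPM at day 4 against 0.0548 RPM for the others. The library sizes implied by the scaling were 181 to 288 M, except for 43.3 M in XEN library B, and the median member held 3 to 10 reads in a KH2 library, 24 in XEN library A and 4 in XEN library B. At this depth the change of a single member is uncertain, and the standard error of a member's change from 8 h to day 4 had a median of 0.32 on the log2 scale.

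The sequences show what GATA6 met in these regions. Below are 201 bases around the GATA6 summit, with each GATA core on either strand in capitals (TATC is GATA on the other strand), from RefSeq GRCm38.p6, plus strand. The Rabl3 region (chr16:37552854-37553054, intron of Rabl3) is the member nearest the median change at day 4 among those with the median number of motifs, the Erbin region (chr13:103875904-103876104, intron of Erbin) had the largest rise by day 4, the Tcte2 region (chr17:13777394-13777594, intron of Afdn) had no scored GATA6 motif, and the Cited2 region (chr10:17689985-17690185, intergenic) was among those with the largest rise from day 4 to XEN.
Rabl3 region: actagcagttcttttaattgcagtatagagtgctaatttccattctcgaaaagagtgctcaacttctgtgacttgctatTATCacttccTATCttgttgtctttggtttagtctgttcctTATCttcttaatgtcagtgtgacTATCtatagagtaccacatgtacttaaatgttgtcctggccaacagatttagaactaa
Erbin region: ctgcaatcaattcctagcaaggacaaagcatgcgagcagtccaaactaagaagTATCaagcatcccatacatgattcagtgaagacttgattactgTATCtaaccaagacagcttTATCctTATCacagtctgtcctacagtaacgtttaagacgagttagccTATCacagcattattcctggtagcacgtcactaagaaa
Tcte2 region: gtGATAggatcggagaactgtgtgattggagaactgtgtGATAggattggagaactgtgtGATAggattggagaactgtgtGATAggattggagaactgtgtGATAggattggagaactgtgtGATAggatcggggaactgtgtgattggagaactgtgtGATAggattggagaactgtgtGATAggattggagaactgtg
Cited2 region: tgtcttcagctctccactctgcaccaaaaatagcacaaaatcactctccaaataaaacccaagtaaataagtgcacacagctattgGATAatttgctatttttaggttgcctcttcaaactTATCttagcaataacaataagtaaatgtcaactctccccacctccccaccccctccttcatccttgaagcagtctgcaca
The Rabl3 window held 4 GATA cores and the Erbin window 5, all on 1 strand. The Tcte2 window held 8 cores in a tandem repeat, all on 1 strand, although no match to the GATA6 matrix was scored in that region.

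GATA cores were frequent around the summits of the members. A core on either strand was present within 100 bases of the summit in 98.6% of members and in 92.9% of all regions, with a mean of 3.28 cores per member and 2.33 per region, where GATATC counts as 2 overlapping cores. TGAA, a word of the same 4 letters, was about as frequent in members (2.05 per window, either strand) as in all regions (1.93). Cores with at most 30 bases between them were found in 65.8% of members, 43.8% of all regions and 60.6% of the Transient GATA6-only unmarked regions described later. AGATAA, on either strand, was found in 61.9% of members, 54.3% of all regions and 76.2% of the Transient unmarked regions. A core was present in 99.0% of the Transient unmarked regions, at a mean of 3.21 per window. Late GATA6-only regions of facultative heterochromatin had a core in 97.5% (mean 2.80) and AGATAA in 57.6%. Late unmarked regions with SOX17 had a core in 97.0% (mean 2.74) and AGATAA in 55.4%. Bases 4 to 10 of the best scored motif read AGATAAG in 33.7% of members with a motif and 37.8% of all regions with one, TGATAAG in 15.3% and 12.6%, and AGATAAC in 12.3% and 9.86%.

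By the authors' motif scan, members held more GATA6 motifs per kb than the whole table, with a best score close to the median of the table. A GATA6 motif was listed in 1097 of 1171 members (93.7%; 89.7% of all regions), at 5.70 per kb of region against 4.04 over all regions, 5.95 in the Transient GATA6-only unmarked regions, 5.48 in the Late GATA6-only regions of facultative heterochromatin and 4.45 in the Late unmarked regions with SOX17. The median best score was 10.1 in members and 10.2 over all regions, while these other Late sets had 9.76 and 9.84 and the Transient unmarked regions 12.05. Score class high was held by 22.4% of members and 48.6% of the Transient unmarked regions. The best motif lay a median of 48 bp from the summit in members and 51 bp in all regions. A SOX17 motif was listed in 68.3% of members, although no SOX17 peak was called there, in 69.2% of all regions, and in 87.3% of the Late unmarked regions that did have SOX17. ESRRB motifs were listed in 23.7% of members and 36.3% of all regions, and OCT4:SOX2 motifs in 69.8% and 71.5%.

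The members lay far from promoters. Of the 1171 members, 679 had their summit in an intron (58.0%; 47.5% of all regions), 426 were intergenic (36.4%; 40.5%), 34 lay within 1000 bp of a transcription start (2.90%; 9.46%) and 32 in an exon (2.73%; 2.58%). The median distance to the nearest start of a protein-coding gene was 44803 bp for members and 25683 bp for all regions. GC content around the summit had a median of 40.3% in members and 45.3% in all regions, and 29.8% and 19.1% of windows held no CpG. These traits were shared with the other unmarked sets described later. Late unmarked regions with SOX17 had 2.4% near a start, a median distance of 39091 bp, 40.8% GC and 28.6% without CpG. Transient GATA6-only unmarked regions had 2.19%, 66792 bp, 41.3% and 40.0%. Late GATA6-only regions of facultative heterochromatin had 4.05%, 33408 bp, 43.8% and 17.3%. The X chromosome carried 107 members, which is 9.14% of them, against 2.92% of all regions. Members were also narrower, with a median width of 419 bp (range 191 to 2682) against 525 bp. Levels are scaled to width only where they are given per kb, and the differences between sets within a library are not.

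Accessibility of the members was low at d0 and through day 1, higher at day 2 and day 4, and highest in XEN. The authors classed 1161 members as closed at d0 and 10 as moderate. The median member held 0.0254 RPM at d0, between 0.0258 and 0.0289 RPM up to day 1, then 0.0408 RPM on day 2, 0.0567 RPM on day 4 and 0.0999 RPM in XEN. Per kb of region the median went from 0.0588 RPM at d0 to 0.127 at day 4 and 0.232 in XEN, while over all regions it was 0.142, 0.249 and 0.228. The median member change against d0, on a log2(RPM + 0.03) scale that understates changes of low values, was 0.10 on day 1, 0.32 on day 2, 0.60 on day 4 and 1.19 in XEN. The same medians over all regions were 0.31, 0.69, 0.52 and 0.40, so that members lay below them on day 1 and day 2 and above them on day 4 and in XEN. At day 4 this order depends on the setting, since with a pseudocount of 0.15 RPM the medians were 0.22 in members and 0.25 over all regions, and in the limma fit without 8 h library B they were 0.55 and 0.57.

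In counts of regions, none of the members differed by more than 2-fold from d0 at 8 h or 16 h (0.00236% of all regions were higher and 0.00236% lower at 16 h), and 2 were higher at day 1 (0.171%; 4.55% of all regions). On day 2, 152 members (13.0%) were more than 2-fold higher than at d0, when 36.8% of all regions were. At day 4 there were 264 such members (22.5%; 31.0% of all regions) and in XEN 742 (63.4%; 27.7% of all regions). No member was more than 2-fold lower than d0 in any column, while 0.00707% of all regions were on day 1, 1.41% on day 2, 7.27% on day 4 and 8.83% in XEN. Members began near the lowest value of the table, with a quartile range of 0.0182 to 0.0353 RPM at d0 against 0.0393 to 0.179 RPM over all regions. Of the 1171 members, 861 (73.5%) had their highest value in XEN and 200 (17.1%) at day 4, whereas 39.4% of all regions were highest at day 2 and 25.6% in XEN. All regions shifted as well. With each column centred on its median, the member median change at day 4 was 0.04. More than 2-fold higher at day 4 were then 66 members (5.64%) and 6684 of the 42403 regions. In XEN 380 members (32.5%) and 6106 of all regions were.

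**Figure D1:**
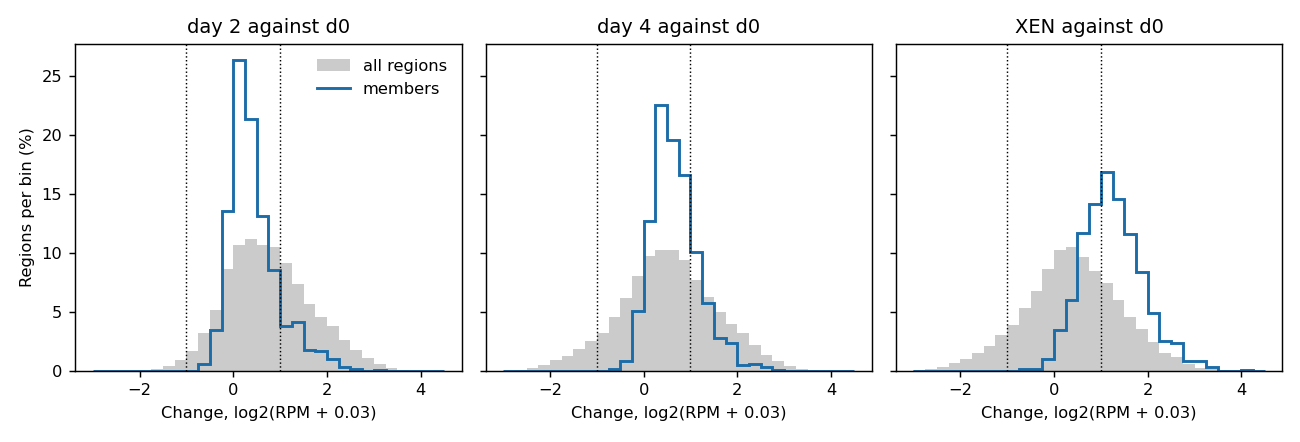
Distribution of the change against d0 at day 2, day 4 and in XEN, from averaged columns on log2(RPM + 0.03), for the members (line) and all regions (grey); dotted lines mark 2-fold. The member peak moves from near 0 at day 2 to past 1 in XEN, where 63.4% of members lie above 2-fold against 27.7% of all regions.

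The libraries show how far replicates carry this. With the added read of each library taken off, the mean member level was 0.0386, 0.0297 and 0.0173 RPM in the 8 h libraries, 0.0206 to 0.0313 RPM in those of 16 h, and 0.0291 to 0.0305 RPM in those of day 1. The day 2 libraries held 0.0441, 0.0554 and 0.0533 RPM, those of day 4 0.0665 and 0.0664 RPM, and those of XEN 0.113 and 0.117 RPM. The 8 h libraries spread over a wide range, yet every day 2 library lay above every earlier one, both day 4 libraries above day 2, and both XEN libraries above day 4. As a share of the reads recovered over all regions, which does not depend on the library size used for scaling, members took 0.609 to 1.05% at 8 h, 0.453 to 0.734% in the libraries of 16 h and day 1, 0.601 to 0.680% in those of day 2, 1.05 to 1.10% in those of day 4 and 2.27 to 2.60% in XEN. On this measure day 2 lay within the range of the earlier groups, 8 h library A (1.05%) lay in the range of day 4, and XEN lay above all.

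**Figure D2:**
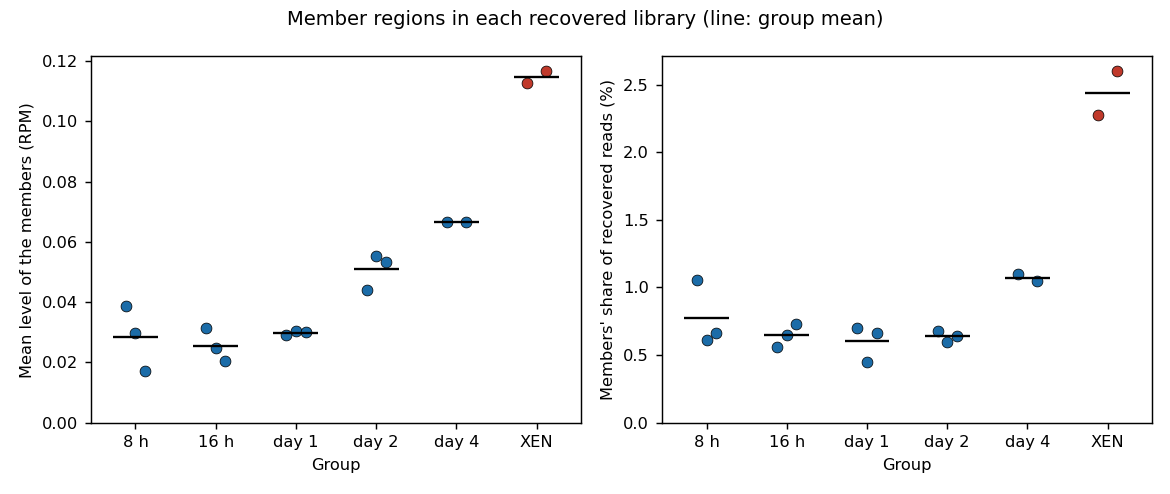
Each point is 1 recovered library; the left panel gives the mean level of the 1149 recovered members in RPM and the right panel the members' share of all recovered reads in percent, with the group mean as a line. The 2 day 4 libraries (0.0664 and 0.0665 RPM) and the 2 XEN libraries (0.113 and 0.117 RPM) lie above all earlier libraries in level.

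Each region was then tested across libraries with limma, with Benjamini-Hochberg adjustment over the 34403 recovered regions, and called when the adjusted p was under 0.05 and the change over 2-fold. No member was called at 16 h against 8 h (0.00291% of all regions were called higher and 0.00291% lower), and 2 members (0.174%) were called higher at day 1 and none lower (3.88% and 0.0145% of all regions). At day 2, 125 of 1149 members (10.9%) were called higher than at 8 h and 1 lower, against 32.4% and 1.01% of all regions. At day 4, 225 members (19.6%) were called higher and none lower, against 29.1% and 5.44% of all regions. The median member held 0.0283 RPM at 8 h, too low to fall 2-fold on this scale, so that calls of falls against 8 h were limited. Both shares of rises, at day 2 and day 4, were below those of the whole table. At day 4 this order depends on the setting. Among regions in the upper 3 of 4 parts by mean value, 152 of 379 members (40.1%) were called higher, a larger share than the 9086 of 25802 regions. At day 2 the order held there, with 93 of 379 members and 10565 of 25802 regions. That cut uses the mean over all groups, so that late levels help to decide which members it keeps. With each library centred on the median of all regions, 25 members were called higher and 76 lower at day 2 (4460 and 3633 of all regions), and 56 higher and 8 lower at day 4 (4973 and 4878 of all regions). Of the 225, 86 had also been called at day 2, and 39 members were called at day 2 but not at day 4. Between day 2 and day 4 directly, 35 members (3.05%; 2.49% of all regions) were called higher and 5 (0.435%; 6.91%) lower. That count rests on few libraries, since it was 7 without day 4 library A, 4 without day 4 library B and 16 without day 2 library A.

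In calls, members and the rest of the table also differed between day 4 and XEN. GATA6 binding in XEN may have helped to choose the members, so that this difference may in part follow from the choice. Of the 1149 members, 303 (26.4%) were called higher in XEN than at day 4, where 7.35% of all regions were, and 20 (1.74%) were called lower, where 9.75% of all regions were. The median member change was 0.55 and that over all regions -0.02. Against 8 h, 657 members (57.2%) were called higher in XEN and none lower, against 27.0% and 6.28% of all regions. Of the 303, 287 had not been called at day 4 and 16 had, and 18 of the 20 lower ones had been called higher at day 4. XEN library B was shallow, so that the read added to each region weighs 0.0231 RPM there, which limits falls. With added reads removed, 282 members were called higher and 32 lower (2243 and 4238 of all regions). Without XEN library A the median member change was 0.71 and that over all regions 0.04. They were 0.43 and -0.09 without XEN library B, 0.54 and -0.05 without day 4 library A, and 0.54 and -0.02 without day 4 library B. Fewer members were called higher without XEN library B or either day 4 library. The median member change in XEN against d0 ran from 0.88 to 1.52 over the 20 chromosomes, and that of all regions from 0.16 to 0.82, and the member median was the higher on all 20.

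Strong single examples rose by day 4. In the Erbin region, inside the gene of a scaffold protein of receptor tyrosine kinases, levels were 0.0422, 0.0658 and 0 RPM in the 8 h libraries, 0.135, 0.367 and 0.349 RPM at day 2, 0.447 and 0.529 RPM on day 4, and 0.101 and 0.0693 RPM in XEN. All day 4 libraries lay above all 8 h libraries, with a change of 3.02 ± 0.37 (SE, log2; limma adjusted p = 7.28e-14), and XEN differed from day 4 by -2.03 ± 0.40 (limma adjusted p = 3.02e-05).

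Further members rose by day 4 with other levels in XEN. The Dusp16 region (chr6:134715872-134716719, an untranslated exon of the gene of a MAP kinase phosphatase) had the highest day 4 average of all members, at 0.634 RPM. Its libraries read 0.141, 0.0893 and 0.0475 RPM at 8 h, 0.184, 0.305 and 0.242 RPM at day 2, 0.477 and 0.780 RPM on day 4, and 0.392 and 0.323 RPM in XEN, a change of 2.41 ± 0.38 at day 4 (limma adjusted p = 5.64e-09). Here day 4 differed from day 2 as well (1.24, limma adjusted p = 0.0188). The Tjp1 region (chr7:65291735-65292265, intergenic, nearest to the gene of the tight junction protein ZO-1) read 0.113, 0.0564 and 0.0142 RPM at 8 h, 0.432 and 0.561 RPM on day 4 and 0.170 and 0.162 RPM in XEN, with no overlap between these groups. The Tcte2 region, in an intron of Afdn, a gene of adherens junctions, went from 0.0235 to 0.0375 RPM at 8 h to 0.241 and 0.438 RPM at day 4, a change of 2.53 ± 0.37 (limma adjusted p = 3.62e-10), without a scored GATA6 motif. The region nearest to Ugt2b37, a glucuronosyltransferase gene, changed by 2.38 at day 4, that nearest to Ube2e1, a ubiquitin-conjugating enzyme gene, by 2.34, and that nearest to 9130204L05Rik by 2.61. The starts of these genes lay 29150, 173544 and 115092 bp away, in that order. In all, 356 members outside chromosome 18 had an adjusted p under 0.05 and a level higher in both day 4 libraries than in all 8 h libraries. They are 32.6% of those fitted, against 35.6% of all such regions. No member had such a fall, which 7.39% of all regions had, but falls were limited by the low 8 h levels of the members.

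The 3 members with the highest GATA6 scores, near Cd28 (15.01), Sorcs3 (14.98) and Fbll1 (14.96, in an exon of Pank3), changed by 0.63 ± 0.36, 1.07 ± 0.31 and 0.60 ± 0.35 between 8 h and day 4, with limma adjusted p of 0.142, 0.00261 and 0.156, so that 1 of the 3 passed the test. The Rabl3 region, the median case, read 0.0328, 0.0141 and 0.0237 RPM at 8 h, 0.0452 and 0.0481 RPM on day 4 and 0.0867 and 0.0923 RPM in XEN. Its groups did not overlap, but its change at day 4, 0.50 ± 0.32, did not pass the test (limma adjusted p = 0.192). A rise of this size was not detectable in 1 region at this depth.

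The members with the largest rises from day 4 to XEN were low throughout the KH2 groups. The Ankrd7 region (chr6:19963571-19964022) was intergenic, 1097413 bp from the nearest start of a protein-coding gene. It read 0.0603 and 0.0267 RPM on day 4 and 0.669 and 0.693 RPM in XEN, a difference of 3.23 ± 0.37 (limma adjusted p = 1.65e-14). The Cited2 region, near the gene of a CBP/p300-binding coactivator, read 0.0251 and 0.0160 RPM on day 4 and 0.284 and 0.508 RPM in XEN, a difference of 2.93 ± 0.35 (limma adjusted p = 5.52e-13). Its day 4 libraries lay within the range of the 8 h libraries, 0.00940 to 0.0469 RPM. Neither region was called between 8 h and day 4.

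Within the members, median changes were alike over the classes of GATA6 motif score and spread more over width, GC content and Oct4 dependence. The median change at day 4 against d0 was 0.59 in the 262 members of the high score class, 0.58 in the 487 of the mid class, 0.61 in the 348 of the low class and 0.58 in the 74 with no GATA6 motif. By SOX17 motif class the day 4 medians were 0.57 in the high class and 0.62 without a motif, but in XEN they were 1.41 in the 192 members of the high class and 1.09 in the 371 without. From day 4 to XEN, 38.8% of the high SOX17 class and 18.6% of those without a SOX17 motif were called higher. With members cut into 4 parts by width, the widest part had a median change of 0.73 at day 4 and the narrowest 0.45, and cut by GC content the highest part had 0.82 and the lowest 0.47. The d0 level moved with both, at 0.0421 and 0.0159 RPM in the widest and narrowest parts and 0.0315 and 0.0199 RPM in the highest and lowest by GC, and its part in the result was not tested. GATA6 binding increased on Oct4 knockdown in 95 members (8.11%, against 8.57% of all regions). It decreased in 6 (0.512%, against 6.25% of all regions). The median change at day 4 was 0.91 in the 95 members with increased binding, 0.57 in the 1070 unchanged ones and 1.08 in the 6 with decreased binding. Those with increased binding had a median width of 523 bp and the unchanged ones 411 bp.

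Some members carry copies of the same sequence. Searching the 201-base windows for shared runs of 24 bases on either strand, without runs that repeat a unit of up to 6 bases, 180 members (15.4%) shared a run with another GATA6 region, as did 16.2% of all regions and 33.3% of the Transient unmarked regions. Grouping members that share a run with each other gave 9 groups of 3 or more, with 63 members in all. These groups were formed on sequence only, but were chosen for description after their values were seen. The largest held 14 members on 11 chromosomes. Below are 6 of the copies that hold its commonest run (8 members, 34 of all regions), named by the nearest gene, with that run in capitals; GATAAG follows it directly or after 1 base in each.
Cntnap5b copy: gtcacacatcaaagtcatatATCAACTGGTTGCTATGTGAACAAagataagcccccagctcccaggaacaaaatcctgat
Ate1 copy: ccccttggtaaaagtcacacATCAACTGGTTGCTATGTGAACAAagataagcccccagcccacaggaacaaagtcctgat
Syt1 copy: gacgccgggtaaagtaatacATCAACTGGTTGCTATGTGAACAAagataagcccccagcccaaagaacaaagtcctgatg
4930452B06Rik copy: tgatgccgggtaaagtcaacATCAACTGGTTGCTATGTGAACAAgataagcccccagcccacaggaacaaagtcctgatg
Esp6 copy: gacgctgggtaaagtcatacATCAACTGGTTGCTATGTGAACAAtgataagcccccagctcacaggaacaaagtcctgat
9130204L05Rik copy: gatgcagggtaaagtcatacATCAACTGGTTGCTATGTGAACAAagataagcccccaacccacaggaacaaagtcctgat
The copies lie at chr1:100291964-100292043 (minus strand), chr7:130487509-130487588, chr10:109312600-109312679, chr14:9501236-9501315 (minus), chr17:40547137-40547216 (minus) and chr3:90975702-90975781. The first 2 are intronic and the other 4 intergenic.

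The 14 members had a median of 0.110 RPM at day 4, against 0.0567 RPM over all members, though not every copy was high. Their median change against d0 was 1.69 at day 4 and 1.55 in XEN. Of the 13 with recovered reads, 9 were called higher at day 4 than at 8 h (19.6% of all recovered members and 29.1% of all regions). In XEN, 4 were called higher than at day 4 (26.4% of members and 7.35% of all regions). The copies differed among themselves. The copy near 9130204L05Rik went from 0.0350 RPM at d0 to 0.334 at day 4 and 0.208 RPM in XEN, the copy near Cntnap5b went from 0.0219 to 0.0569 and 0.239 RPM, and the copy near Ate1 from 0.0234 to 0.0928 and 0.0352 RPM. Between day 4 and XEN the Cntnap5b copy changed by 1.63 ± 0.36 (limma adjusted p = 0.000260) and the Syt1 copy by -1.40 ± 0.37 (limma adjusted p = 0.00221). A pair of copies in introns of Luzp4 on the X chromosome stood at 0.00518 RPM at day 4, the lowest value that column holds, and at 0.0745 and 0.0641 RPM in XEN. The 71 GATA6 regions outside the members that share a run with them had a median change of 1.70 at day 4 and 1.27 in XEN, and 41 of them belonged to the Late cluster, 28 to Early&Constant and 2 to Transient. Reads of low mapping quality were dropped by the authors, and how many reads each copy lost by that was not tested, so that levels of single copies are uncertain.

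**Figure D3:**
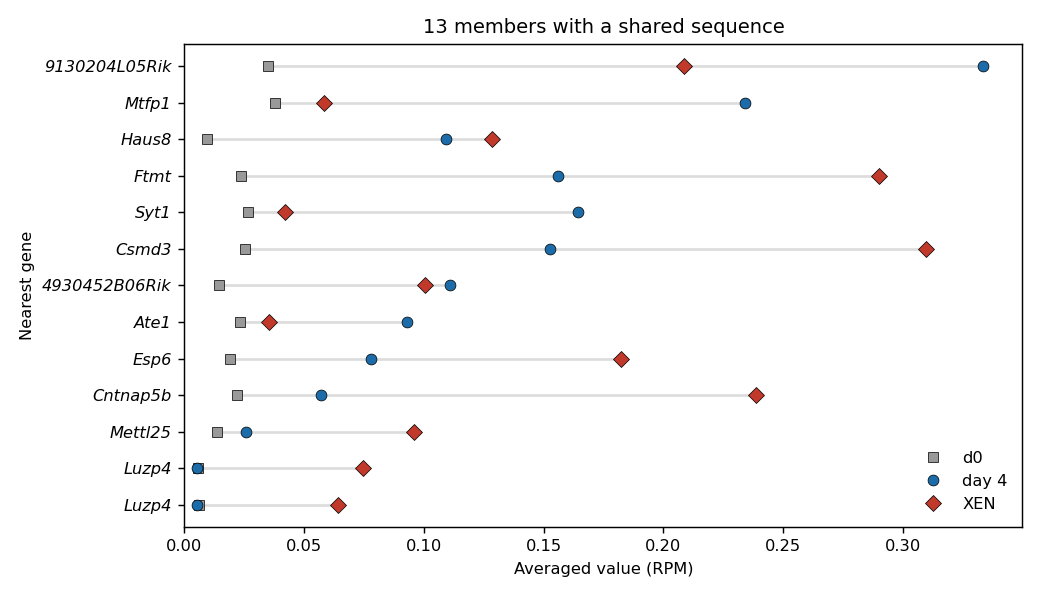
Members of the largest sequence group (13 of the 14), named by nearest gene and ordered by their change at day 4; points give the averaged value in RPM at d0, day 4 and in XEN. All but the 2 Luzp4 copies are higher at day 4 than at d0, and XEN lies above day 4 in 8 of the 13.

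The Ankrd7 region belongs to a second group, of 6 members that include the Ube2e1 region. Of these, 4 hold the same run, in capitals here for 3 of them, with TATC inside it and again across its end.
Ankrd7 copy: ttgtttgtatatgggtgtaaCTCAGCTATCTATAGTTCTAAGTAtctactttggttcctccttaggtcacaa
Plekha5 copy: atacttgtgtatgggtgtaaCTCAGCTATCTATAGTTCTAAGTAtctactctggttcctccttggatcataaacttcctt
Gatb copy: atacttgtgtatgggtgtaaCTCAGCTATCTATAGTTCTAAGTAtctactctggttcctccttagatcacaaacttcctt
The copy near Ankrd7 (chr6:19963792-19963863) changed by 0.87 at day 4 and 4.08 in XEN against d0, that in an intron of Plekha5 (chr6:140458694-140458773) by 1.98 and 1.26, and that in an intron of Gatb (chr3:85650546-85650625) by 0.41 and 1.76. The fourth copy, nearest to Endod1, held 0.0402 RPM at d0, 0.171 on day 2, 0.132 on day 4 and 0.112 in XEN, changes of 1.21 at day 4 and 1.02 in XEN. Among the d0, day 2, day 4 and XEN averages, the Ankrd7 and Gatb copies were highest in XEN, the Plekha5 copy at day 4 and the Endod1 copy at day 2.

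The members were compared with Late GATA6-only regions in facultative heterochromatin (2493 regions) and with Late unmarked regions with SOX17 (1541 regions). The former had like changes but higher levels per kb, 0.0797 RPM at d0 and 0.310 in XEN against 0.0588 and 0.232 in members. The latter opened more by day 4. Median changes against d0 in the former were 0.39 at day 2, 0.65 at day 4 and 1.22 in XEN, and in the latter 0.91, 1.47 and 1.57, beside 0.32, 0.60 and 1.19 in the members. In the Transient GATA6-only unmarked regions (1052) they were 0.12, -0.03 and 0.26. Calls at day 4 against 8 h were made in 19.6% of members, 21.3% of the heterochromatin set, 69.4% of the SOX17 set and 1.77% of the Transient set. From day 4 to XEN the order was another, with 26.4% of members called higher, 27.2%, 13.4% and 5.02% of the other sets.

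Since sets share libraries, their medians were compared within each library. These are medians of RPM per region, not scaled to width, so that width enters the differences. Median widths were 419 bp in members, 329 bp in the heterochromatin set, 566 bp in the SOX17 set and 494.5 bp in the Transient set. The median of the members minus that of the SOX17 set was -0.31 to -0.13 at 8 h, -0.89 to -0.53 in day 2 libraries, -1.11 to -1.0 in day 4 libraries and -0.65 to -0.56 in XEN. The day 2 and day 4 libraries did not overlap those of 8 h. Against the heterochromatin set the differences stayed between -0.19 and 0 in all 16 libraries. Against the Transient set they were -0.40 to -0.19 at 8 h, 0.31 to 0.39 in day 4 libraries and 0.55 to 0.70 in XEN, without overlap. A median of so few reads moves in steps of 1 read, so that small differences are not resolved. Per kb, members held the least at day 4 of the 3 Late sets, 0.127 RPM against 0.177 and 0.268 RPM.

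**Figure D4:**
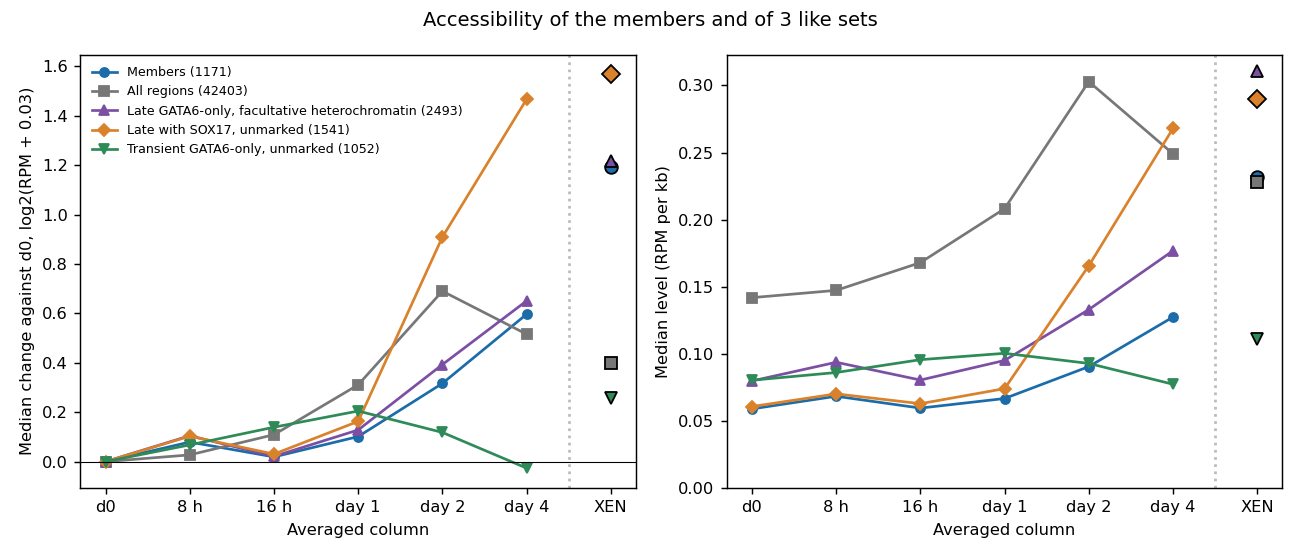
Median change against d0 (left, log2(RPM + 0.03)) and median level per kb (right, RPM) in the averaged columns for the members, all regions and 3 like sets; XEN is set apart because it is another cell line. In median change the members track the facultative heterochromatin set, 0.60 against 0.65 at day 4, below the SOX17 set at 1.47.

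**Figure D5:**
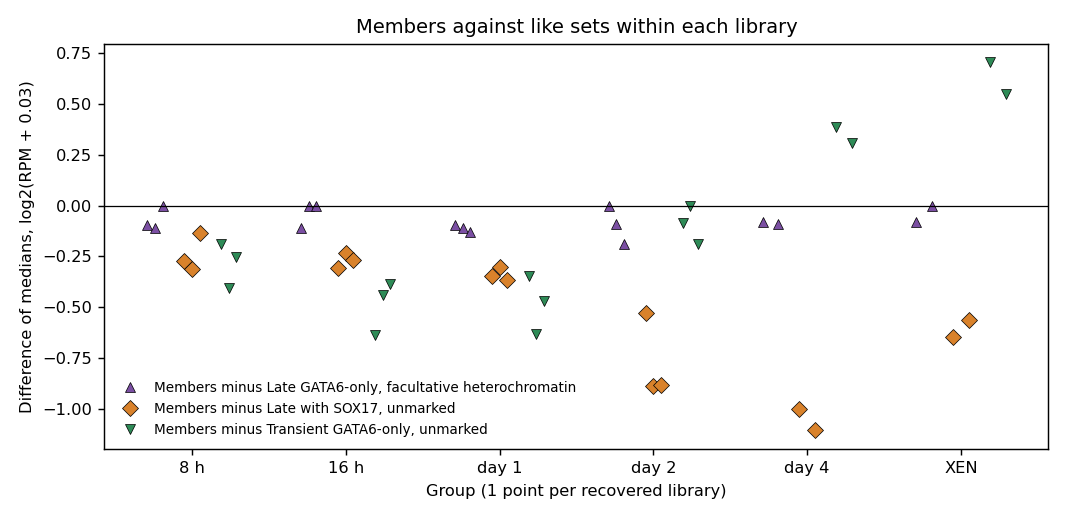
Difference between the member median and the median of each like set within each recovered library, in log2(RPM + 0.03) without scaling to region width, with 1 point per library. The SOX17 set pulls away at day 2 and day 4 (to -1.11), and the Transient set crosses from below 0 at 8 h to above 0.3 at day 4.

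The members were spread over 967 nearest genes, 823 of which had 1 member. The most, 11, lay nearest to Arhgap6, on X, over 195 kb, followed by 8 at Robo2, an axon guidance receptor gene, and 6 each at Flrt2 and Fut8. The 11 Arhgap6 members changed by a median of 0.56 at day 4 and 1.23 in XEN, with none called at day 4 and 3 called higher from day 4 to XEN. The 8 Robo2 members changed by 0.28 and 1.26, with 2 and 4 such calls. Over all members 19.6% and 26.4% were called in these comparisons, and over all regions 29.1% and 7.35%. The median distance from a member to the nearest other GATA6 region was 12741 bp and to the nearest SOX17-bound region 33990 bp, against 8655 bp and 22805 bp over all regions. Members within 10 kb of a SOX17-bound region (295) had a median change of 0.63 at day 4, those 10 to 100 kb away (619) 0.60 and those farther (257) 0.56, while in XEN the medians were 1.12, 1.2 and 1.34.

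Some members had a known endoderm gene as their nearest gene. Of 50 listed endoderm genes, 7 were the nearest gene of a member, 1 each, which makes 0.598% of members, while 1.03% of all regions had a listed gene as their nearest. Of the 6 such members with recovered reads, 2 were called higher at day 4 than at 8 h and none lower (29.1% and 5.44% of all regions), and 1 was called higher in XEN than at day 4 (7.35% of all regions). In an intron of Dab2, an endocytic adaptor of the primitive endoderm, the average went from 0.0415 RPM at d0 to 0.279 at day 2, 0.224 at day 4 and 0.218 RPM in XEN (chr15:6395728-6396311), with no library values to test. Near Thbd, the thrombomodulin gene, the change at day 4 was 1.43 ± 0.34 (limma adjusted p = 0.000188), and in an intron of Lama1, which encodes a laminin chain of the basement membrane, 1.05 ± 0.36 (limma adjusted p = 0.0101). In an exon annotated to Ctsl, the cathepsin L gene, the change was 0.99 ± 0.32 (limma adjusted p = 0.00632), just under 2-fold. At 120699 bp from the start of Foxq1, a forkhead factor gene, it was 0.31 ± 0.29 (limma adjusted p = 0.392).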

How the data were processed

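The authors took ATAC reads through cutadapt, bowtie2 (mm10) and SAMtools, dropped duplicates and low mapping qualities, shifted ends for Tn5 and counted short fragments in each GATA6 region with bamsignals. The deposited RPM values were scaled to library size by the authors and averaged over a group. Motif scores per region came from FIMO and are used as deposited, as a score. The Oct4 knockdown class came from DESeq2 run by the authors. A further 52 columns of other assays were not used.

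Each averaged value was split into whole reads of 2 or 3 libraries by the decimals. Every region holds 1 added read per library, which was kept in tests. Both steps were tested on simulated data. Changes are differences of log2(RPM + 0.03). Libraries were tested with limma 3.58.1 (R 4.3.3), trended, all 16 libraries in 1 fit. The study describes replicates as independent cultures. The planned tests assumed that the columns could hold single samples; only averages were found. The labelled 3 XEN samples resolved to 2 libraries. Positions are from GENCODE M21 and GRCm38, which is the assembly of mm10. Members and gene lists were chosen with earlier results of these data known; XEN against 8 h, the removal of added reads, the restriction to values with all digits and the search for shared runs were added after the values were seen. Results on some regions are not reported here. Named regions were the 8 largest rises with all libraries in 1 direction, the 3 highest at day 4, the 3 best motif scores, the member nearest the median change among those with the median motif number, the extremes between day 4 and XEN (chromosome 18 skipped), and the 5 largest changes near listed genes outside chromosome 18; Arhgap6, Robo2, Flrt2, Fut8 and the sequence groups were named after their values were seen.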

Additional observations from a re-analysis of the deposited data

How the results depend on the processing

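The counts of members past 2-fold depend on the scale. Against d0 they were 152 at day 2, 264 at day 4 and 742 in XEN (15616, 13147 and 11738 of all regions). With a pseudocount of 0.006 RPM the first 2 were 316 and 546 (19019 and 16434). With 0.15 RPM the 3 were 25, 26 and 136 (8287, 5915 and 3886). Centred columns gave 29, 66 and 380 (5541, 6684 and 6106), and quantile normalisation 42, 95 and 478 (4575, 6713 and 8007). Of the 316 members in the upper 3 of 4 parts by mean value, 98, 147 and 246 were past 2-fold (31.0%, 46.5% and 77.8%). The member median change at day 4 was 0.60, and in that order of settings 0.96, 0.22, 0.039, 0.29 and 0.94. The limma calls behaved alike. Called higher than 8 h at day 2 and at day 4 were 125 and 225 of 1149 members (11144 and 10000 of 34403 regions). A pseudocount of 0.006 RPM gave 240 and 365 (14022 and 12035), and 0.15 RPM 17 and 20 (5150 and 3896). Centred libraries gave 25 and 56 (4460 and 4973), and quantile normalisation 36 and 80 (3495 and 5035). Keeping only regions with all digits was an alternative chosen after seeing the data. Of its 573 members 75 and 122 were called (9125 and 7555 of 24753 regions). Leaving out 1 library gave 99 to 160 and 164 to 299. Called higher at day 4 than at day 2 were 35 members (856 of all regions), 1 with 0.15 RPM (78), 69 with centring (1518) and 22 with all digits kept (494). Without day 2 library A, B or C the member count was 16, 32 or 23, and it fell most without 1 of the 2 day 4 libraries. From day 4 to XEN, 303 were called higher and 20 lower, and 57 and 2 with 0.15 RPM. The count of rises was 116 in the upper parts by mean value, 143 with all digits kept and 185 to 350 with 1 library left out, and that of falls 32 with added reads removed, also chosen after seeing the data, and 8 to 15 with 1 library left out. A higher pseudocount or fewer regions lowers these counts by construction, and otherwise the cause was not tested. The 12 results on named regions kept their direction and call in all 137 refits.

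No paired analysis was possible because the recovered libraries carry no replicate number. Depth limits the values, since a member held 3 to 10 reads in a KH2 library and XEN library B was shallow. The d0 group has no error, and XEN differs from KH2 in strain, genotype and culture, which cannot be told apart from cell identity.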
